A study of Mus musculus with 18 samples.

Results

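Actin is the protein of the thin filaments, and the mouse carries several actin genes that encode nearly the same protein. *Actb*, *Actg1*, *Acta1* and *Acta2* were taken by symbol from a table of normalized expression values of 15329 genes in 18 hippocampal libraries. The rule names the family and uses no measured value. All 4 were listed, and each had reads in all 18 libraries. All mice were C57BL/6J and 8 to 10 weeks old, each gave 1 library, and there were 3 mice in each of 6 groups. WT_Basal and KO_Basal were wild-type and *Ccny* knockout (KO) mice without training. WT_OL and KO_OL were taken after original learning (OL) in the Morris water maze, in which a mouse learns from cues around a pool where a hidden platform lies. WT_RL and KO_RL were taken after original and then reversal learning (RL), in which the platform was moved. How the *Ccny* allele was disrupted, whether in all cells, and how long after the last swim the tissue was taken were not given in the sources used here. Each library holds the RNA of all cells of the hippocampal tissue together, so fewer cells of a type and less RNA per cell cannot be told apart.

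The products of *Actb* and *Actg1* are beta- and gamma-actin, the cytoplasmic actins. They are made in nearly every cell, and in neurons they form the filaments of growth cones, axons and dendritic spines, whose size and shape depend on actin turnover. *Acta2* encodes the alpha-actin of smooth muscle, which in the brain is made mainly by the contractile cells around arteries and arterioles, and *Acta1* encodes the alpha-actin of skeletal muscle. Transcription of actin genes is controlled by serum response factor (SRF), which binds a short motif called the CArG box, and by SRF cofactors of the myocardin family (*Mkl1* and *Mkl2*), which free actin monomers hold in the cytoplasm.

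The libraries held between 29248557 and 37915576 reads on the listed genes, so that 1 read corresponded to 0.0274 to 0.0333 CPM, the read count scaled to the size of the library. The 6 untrained libraries held 29248557 to 31509208 reads and the 12 trained libraries 31830344 to 37915576, without overlap. *Ccny* itself lay between 107 and 158 CPM in the 9 WT libraries and between 74.0 and 95.8 CPM in the 9 KO libraries, without overlap, and the difference averaged over the 3 training states was -0.72 on the log2 scale (SE 0.0612, adjusted p = 3.3e-05 by limma). *Ccny* RNA was thus reduced and not absent in the KO mice. The 9 markers of hippocampal neurons summed to 5512 to 7363 CPM. The 8 markers of the choroid plexus, the tissue that makes cerebrospinal fluid and lies against the hippocampus, ranged in sum from 42.3 to 8458 CPM. In KO_Basal they summed to 46.7 to 669.6 CPM, below every library of WT_Basal (861 to 4366 CPM), of KO_OL (2417 to 4670 CPM) and of KO_RL (1339 to 5049.8 CPM). Libraries also differed in how expression depended on GC content. The fitted log2 difference between genes of high and of low GC content was -0.28 to -0.18 in the 6 untrained libraries and -0.017 to 0.33 in the 12 trained libraries, without overlap. The number of reads on listed genes and the GC trend thus both went with training state, and the design cannot tell their parts apart. The output reads that the paper lists overlapped between untrained and trained libraries. The split was therefore in the reads that reached listed genes and not in the reads sequenced, and its source was not tested.

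On the GRCm38 assembly all 4 genes lie on the minus strand. *Actb* spans chr5:142903115-142906754, *Actg1* chr11:120345690-120348542, *Acta1* chr8:123891769-123894751 and *Acta2* chr19:34241090-34255590. The annotated exons of *Actg1* also hold the microRNA genes *Gm23419* and *Mir6935* on the same strand. The last 60 coding bases, stop codon included, show how alike the coding sequences are, with the bases that differ from *Actb* in capitals:
*Actb*: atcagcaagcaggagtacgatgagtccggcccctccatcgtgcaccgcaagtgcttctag
*Actg1*: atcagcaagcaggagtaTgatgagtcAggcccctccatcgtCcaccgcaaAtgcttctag
*Acta1*: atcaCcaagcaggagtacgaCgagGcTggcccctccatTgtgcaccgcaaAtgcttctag
*Acta2*: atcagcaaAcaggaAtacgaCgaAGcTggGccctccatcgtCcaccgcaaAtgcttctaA
In this stretch *Actg1* differs from *Actb* at 4 bases, *Acta1* at 6 and *Acta2* at 10. Over the whole coding sequence, *Actb* was 88.7% identical to *Actg1*, 84.8% to *Acta1* and 82.8% to *Acta2*, and *Acta1* was 85.4% identical to *Acta2*. Reads of the length used can still tell most of these genes apart. Of all 100-base windows of the longest transcript, 0 of 1347 in *Acta1* and 0 of 1936 in *Acta2* occur unchanged in a transcript of another gene. In *Actb* 20 of 1821 windows do. In *Actg1* 946 of 1853 windows (51.1%) are shared, all of them within the coding sequence and none with another of the 4 actins. The 6 genes that share these windows, *Actg-ps1* among them, are not listed in the table. Reads of *Actg1* that match those copies could have been dropped or assigned elsewhere, so the level of *Actg1* is less certain than that of the other 3 genes.

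The promoters were searched for the SRF motif because SRF is the common regulator of the family. RefSeq (GRCm38.p6) windows from 250 bases before to 50 bases after the transcription start were available for *Actg1*, *Acta1* and *Acta2*. The search covered both strands for CArG boxes, which are CC, then 6 bases of A or T, then GG. CArG-like boxes, with 1 G or C among the 6 inner bases, were searched for as well. Of 32851 such windows in the genome, 1.63% held a CArG box and 8.5% a CArG-like box. In the sequences below, which read 5′ to 3′ on the gene strand, boxes are in capitals:
*Acta1*, chr8:123894776-123895020: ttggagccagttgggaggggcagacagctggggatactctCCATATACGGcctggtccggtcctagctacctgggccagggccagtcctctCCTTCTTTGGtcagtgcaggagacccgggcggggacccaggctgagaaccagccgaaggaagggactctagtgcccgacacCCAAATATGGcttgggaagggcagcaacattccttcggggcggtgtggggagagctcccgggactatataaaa
*Actg1*, chr11:120348543-120348625: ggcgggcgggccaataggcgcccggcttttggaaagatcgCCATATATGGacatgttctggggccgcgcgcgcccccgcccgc
*Acta2*, chr19:34255438-34255467: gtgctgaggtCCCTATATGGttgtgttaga
*Acta2*, chr19:34255388-34255417: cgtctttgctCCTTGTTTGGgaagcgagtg
*Acta1* held 1 CArG box starting 73 bases before the RefSeq start and 2 CArG-like boxes farther upstream, at 205 and 154 bases. *Actg1* held 1 CArG box, at 90 bases. *Acta2* held 2 CArG-like boxes, at 84 and 34 bases before the RefSeq start, both inside the first exon of the longer GENCODE annotation. A match describes the letters in a window and does not show that SRF binds there in the hippocampus.

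The cytoplasmic actins made up nearly all of the actin RNA of the hippocampus. Because genes differ in length, levels were compared as CPM per kilobase of exon. In WT_Basal these levels were 295 ± 16.9 for *Actb*, 185 ± 13.1 for *Actg1*, 18.5 ± 5.99 for *Acta2* and 3.63 ± 0.198 for *Acta1* (SD, n = 3). The order was the same with the length of the longest transcript in place of all exons, which gave 412, 251, 19.9 and 3.85. Over all 18 libraries *Actb* ranged from 248 to 491 CPM per kilobase and *Actg1* from 165 to 256, so their ranges over different groups touched, while *Actb* was above *Actg1* within each library. *Acta2* ranged from 8.19 to 24.6 CPM per kilobase and *Acta1* from 2.5 to 6.97, and neither overlapped with any other member. Of the summed CPM per kilobase of the 4 genes, *Actb* held 57.7% to 65.0% in single libraries, *Actg1* 31.7% to 39.3%, *Acta2* 1.18% to 5.06% and *Acta1* 0.419% to 1.12%. These shares depend on the count of *Actg1*, which could be too low because 946 of its 1853 windows are shared with other genes. How many of its reads were lost was not tested, so the place of *Actb* above *Actg1* is less certain than the other places.

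The 4 genes also differed in how much they varied between mice of the same group. The within-group SD of the log2 value was 0.0935 for *Actb* and 0.0881 for *Actg1*, and 17.1% and 14% of all genes had a smaller one. It was 0.214 for *Acta1* and 0.368 for *Acta2*, and 80.6% and 96.5% of genes had a smaller one. The precision for the muscle actins was therefore lower. *Acta1* had 127 to 361 reads per library, against 20392 to 42902 reads for *Actb*. The part of counting error in these SDs was not tested.

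**Figure D1:**
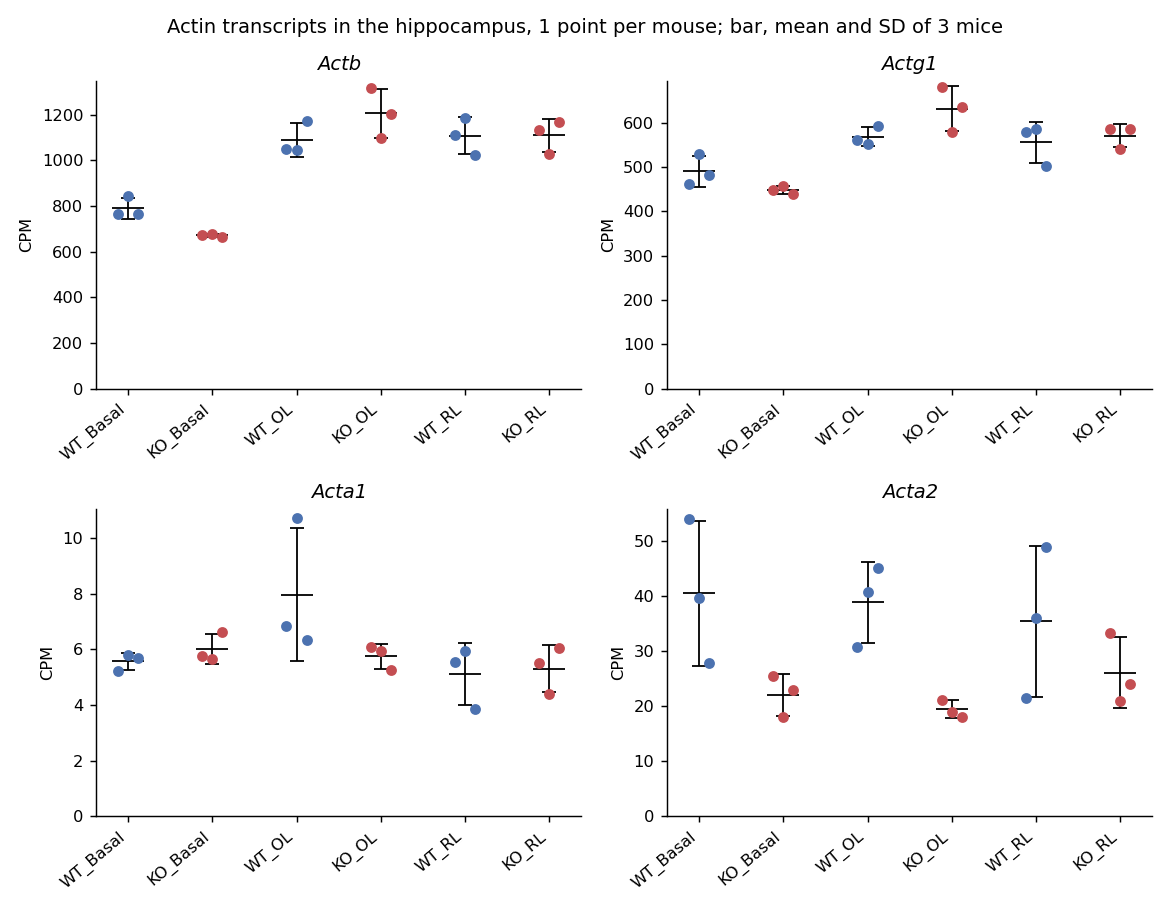
CPM of *Actb*, *Actg1*, *Acta1* and *Acta2* (vertical axes, 1 panel per gene with its own scale) in the 6 groups, with 1 point per mouse and the group mean and SD. *Actb* was between 664 and 842 CPM in all 6 untrained mice and between 1026 and 1316 CPM in all 12 trained mice, and *Acta2* was between 27.8 and 54.1 CPM in WT_Basal and WT_OL and between 18 and 25.5 CPM in KO_Basal and KO_OL.

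The first question was whether training altered the actin genes within each genotype. *Actb* rose after training in both genotypes and *Actg1* rose in KO mice, whereas neither muscle actin passed the test in any comparison with untrained mice. The 3 WT_Basal mice had *Actb* at 764, 842 and 764 CPM. The 3 WT_OL mice had 1050.3, 1045 and 1174 CPM, and the 3 WT_RL mice had 1114, 1186 and 1026 CPM. Both trained WT groups were thus wholly above the untrained one and overlapped with each other. The log2 change was 0.46 after OL (SE 0.0895, 1.38-fold, adjusted p = 0.00492) and 0.49 after RL (SE 0.0895, 1.40-fold, adjusted p = 0.00226), both by limma over all 15329 genes and on the log2(CPM + 1) scale, as are all fold changes given for single genes. *Actb* was the 1 member of 4 called after OL and the 1 member of 4 called after RL, while 9.50% and 15.7% of all genes were called in these comparisons.

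In KO mice the change of *Actb* was larger in size. The gene was 672, 679 and 664 CPM in KO_Basal, 1316, 1099.9 and 1203 CPM in KO_OL, and 1132, 1029.7 and 1168 CPM in KO_RL. The 6 trained KO mice were all above the 3 untrained ones. The log2 change was 0.84 after OL (SE 0.0895, 1.79-fold, adjusted p = 2.6e-05) and 0.72 after RL (SE 0.0895, 1.65-fold, adjusted p = 7.3e-05). By p-value *Actb* stood at place 33 of 15329 genes after OL and at place 91 after RL. Training called 2 of the 4 members in each of these comparisons, *Actb* and *Actg1*, against 23.5% of all genes after OL and 23.6% after RL. In each genotype the OL and RL comparisons share their untrained mice and are not independent of each other.

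*Actg1*, whose protein differs from beta-actin mainly at the amino terminus, moved in the same direction as *Actb* and by less. It was 461, 529 and 482 CPM in WT_Basal, 560.4, 552 and 593 CPM in WT_OL, and 579, 586 and 502 CPM in WT_RL. The WT_OL mice did not overlap with the WT_Basal mice, and the lowest WT_RL mouse fell within their range. The log2 difference was 0.21 after OL (SE 0.0817, unadjusted p = 0.0183, adjusted p = 0.11) and 0.18 after RL (adjusted p = 0.152), and neither passed the test by limma. In KO mice *Actg1* was 447, 457 and 439 CPM in KO_Basal, 680.4, 580.0 and 634 CPM in KO_OL, and 586, 542 and 586 CPM in KO_RL. All trained KO mice were above all untrained ones. *Actg1* rose by 0.49 on the log2 scale after OL (SE 0.0817, 1.41-fold, adjusted p = 0.000587) and by 0.35 after RL (SE 0.0817, 1.27-fold, adjusted p = 0.00608). Counting members whose mice did not overlap with the untrained group gave 3 of 4 for WT_OL (28.3% of all genes), 1 of 4 for WT_RL (34.3%), 2 of 4 for KO_OL (48.8%) and 2 of 4 for KO_RL (45.3%).

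Both cytoplasmic actins moved with the GC trend of the libraries. Over the 18 libraries the correlation of the log2 value with the GC trend was 0.86 for *Actb* and 0.81 for *Actg1*, and with group means removed it was 0.34 and 0.36. The transcripts of these genes have a GC content of 51.1% and 52.6%. With each library corrected for GC content, the log2 changes of *Actb* were 0.42 and 0.43 in WT mice and 0.77 and 0.65 in KO mice after OL and RL, and those of *Actg1* in KO mice were 0.40 and 0.26. All 6 calls held in that correction, with adjusted p-values up to 0.0415. Markers of the choroid plexus were also higher after training in KO mice, where 8 of 8 rose after OL (median log2 change 3.37) and 7 of 8 after RL. In WT mice none of the 8 was called, and the median was 0.21 after OL and -1.02 after RL. Over 18 libraries the correlation of their mean with *Actb* was 0.46, and -0.30 with group means removed. The part of these cells in the change of *Actb* in KO mice was not tested.

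**Figure D2:**
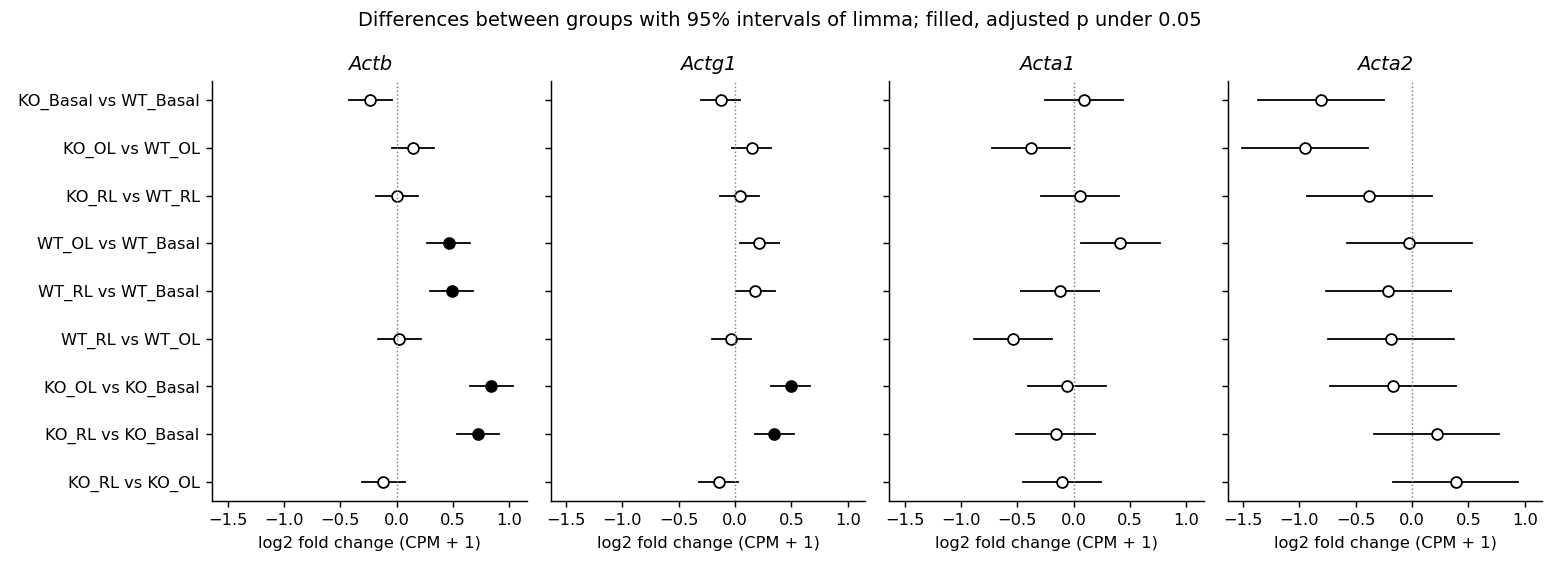
Log2 fold changes of the 4 actin genes (horizontal axis) in the 9 comparisons of 2 groups, with 95% confidence intervals from limma and filled points where the adjusted p was under 0.05. The filled points are *Actb* after OL and RL in WT mice (0.46 and 0.49) and in KO mice (0.84 and 0.72), and *Actg1* after OL and RL in KO mice (0.49 and 0.35).

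Whether the response to training differed between the genotypes was tested as a difference of changes. For *Actb* the change after OL was larger in KO than in WT mice by 0.38 on the log2 scale (SE 0.127, unadjusted p = 0.00859), and the adjusted p of 0.388 by limma was not past the threshold. After RL the difference was 0.23 (unadjusted p = 0.0816, adjusted p = 0.908). For *Actg1* it was 0.28 after OL (unadjusted p = 0.0282, adjusted p = 0.39) and 0.17 after RL (adjusted p = 0.908). No member was called in either interaction, and neither was any of the 15329 genes (0%), although 1908 genes after OL and 765 after RL had an unadjusted p under 0.05. The larger changes in KO mice came with a lower starting level. *Actb* averaged 671 ± 7.85 CPM in KO_Basal and 790.1 ± 45.3 CPM in WT_Basal, 1206 ± 108 and 1089.6 ± 73.1 CPM in KO_OL and WT_OL, and 1109.9 ± 71.6 and 1109 ± 80.0 CPM in KO_RL and WT_RL (SD, n = 3).

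KO mice were next compared with WT mice in the same training state. Without training, 3 of 4 members had KO mice wholly below WT mice, namely *Actb*, *Actg1* and *Acta2*. Of all genes 7.67% did, and 14.7% were without overlap in either direction. None of the members passed the test (0 of 4, against 0.0196% of all genes). The log2 difference of *Actb* was -0.23 (SE 0.0895, unadjusted p = 0.019, adjusted p = 0.994) and that of *Actg1* was -0.13 (SE 0.0817, unadjusted p = 0.132). After OL the differences of *Actb* and *Actg1* were 0.14 and 0.15, with the mice of both genotypes overlapping. After RL they were 0.0020 and 0.041. Averaged over the 3 states *Actb* differed by -0.029 (95% interval -0.14 to 0.081) and *Actg1* by 0.020 (-0.080 to 0.12).

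*Actb* and *Actg1* varied together across mice. The correlation of their log2 values over the 18 libraries was 0.95, and it was 0.93 when the group means were removed, which leaves the variation between mice of the same group. Their balance nevertheless shifted with training. The ratio of *Actb* to *Actg1* in CPM, on the log2 scale, averaged 0.69 ± 0.0348 in WT_Basal and 0.58 ± 0.0111 in KO_Basal, against 0.94 ± 0.0419 in WT_OL, 0.997 ± 0.0462 in WT_RL, 0.93 ± 0.0161 in KO_OL and 0.96 ± 0.0347 in KO_RL (SD, n = 3). The 6 untrained mice lay between 0.57 and 0.73 and the 12 trained mice between 0.91 and 1.03, without overlap. The difference was 0.32 (0.28 in WT and 0.36 in KO mice), with p = 0.000142 in an exact two-sided permutation test within genotypes, the smallest that the 7056 arrangements can give, and an adjusted p of 0.00085 over the 6 ratio tests.

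With GC content corrected, an alternative chosen after seeing the data, the shift in this ratio was 0.34 with the same p. Many windows of *Actg1* are shared with other genes, so its count, and with it this ratio, could depend on how reads mapped. The mapping rates that the paper lists were higher in most trained libraries than in the untrained ones. The part of mapping in the shift was not tested. As a share of the summed CPM per kilobase of the 4 genes, *Actb* made up 58.8% ± 0.238 in WT_Basal and 57.9% ± 0.14 in KO_Basal, and 63.2% to 64.4% on average in the 4 trained groups. *Actg1* made up 36.8% and 38.9% in the untrained groups and 32.5% to 33.9% in the trained ones. The summed level itself was 502 ± 29.1 CPM per kilobase in WT_Basal, 433 ± 4.87 in KO_Basal and 642 to 700.5 on average in the trained groups. Between genotypes the ratio of *Actb* to *Actg1* differed by -0.049 (p = 0.021, adjusted p = 0.0252, exact permutation test within training states), with -0.10 in untrained mice, -0.0039 after OL and -0.039 after RL. That small difference lost the threshold without the third WT_OL mouse (-0.041, adjusted p = 0.0555) and with medians in place of means (-0.049, adjusted p = 0.158).

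**Figure D3:**
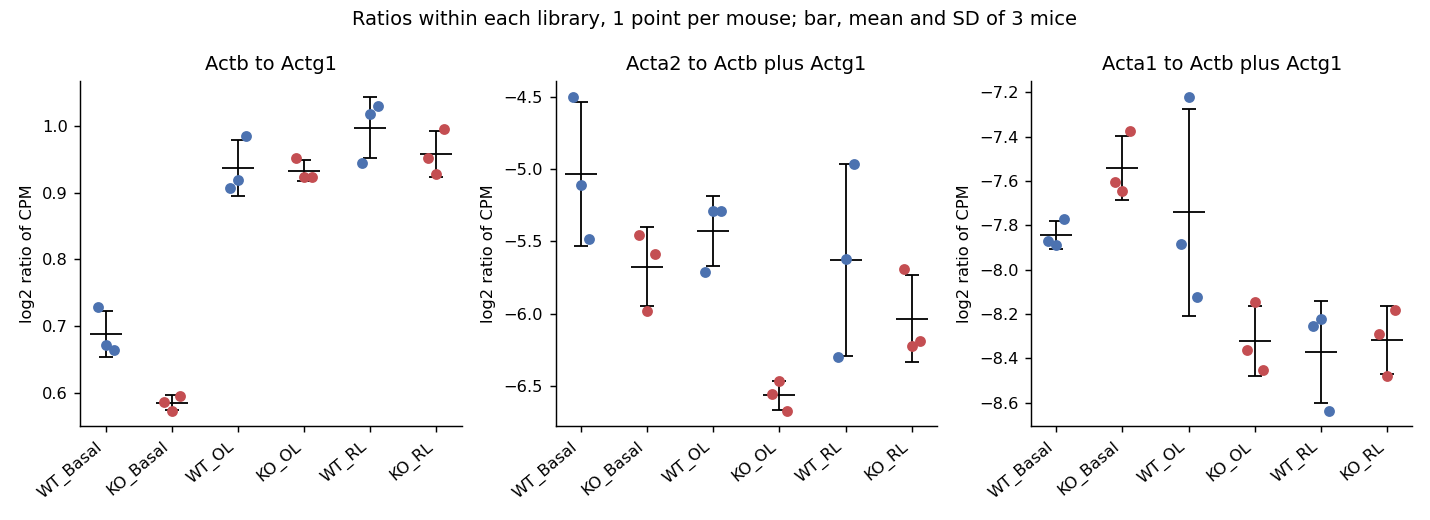
Log2 ratios of *Actb* to *Actg1*, of *Acta2* to *Actb* plus *Actg1* and of *Acta1* to *Actb* plus *Actg1* (vertical axes, from CPM) in the 6 groups, with 1 point per mouse and the group mean and SD as bars. The ratio of *Actb* to *Actg1* is between 0.57 and 0.73 in the untrained mice and between 0.91 and 1.03 in the trained mice, and the KO means of the *Acta2* ratio lie below the WT means in all 3 training states.

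*Acta2*, the smooth muscle actin, was lower in KO mice by a similar amount on its own and relative to the cytoplasmic actins. Averaged over training states, the log2 differences were -0.71 (unadjusted p = 0.00023 by limma) and -0.73 (p = 0.0045 by exact permutation test). The first missed the threshold with adjustment over all genes, and the second passed with adjustment over 6 ratio tests. Tests and adjustments differed, so these calls do not show a clearer difference for the ratio. *Acta2* was 54.1, 39.7 and 27.8 CPM in WT_Basal against 25.5, 18 and 22.9 CPM in KO_Basal. After OL it was 30.8, 40.8 and 45.2 CPM in WT mice and 21.2, 19.0 and 18.1 CPM in KO mice. In both states all WT mice were above all KO mice. After RL it was 21.5, 36 and 48.9 CPM in WT mice and 33.3, 21.0 and 24.0 CPM in KO mice, and there the genotypes overlapped.

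The log2 difference of *Acta2* between KO and WT mice was -0.81 without training (SE 0.263, unadjusted p = 0.00715, adjusted p = 0.994) and -0.95 after OL (SE 0.263, unadjusted p = 0.00223, adjusted p = 0.144). It was -0.38 after RL (SE 0.263, unadjusted p = 0.169, adjusted p = 0.986), and between -0.69 without the first WT_RL mouse and -0.12 without the third. Averaged over the 3 states it was -0.71 (SE 0.152, 0.61-fold, 95% interval -1.03 to -0.39, unadjusted p = 0.00023). The adjusted p of 0.147 by limma over all genes was not past the threshold, and 0 of 4 members were called in this contrast, against 0.0326% of all genes. Without the first WT_RL mouse, which had the lowest *Acta2* among the WT mice, the averaged difference was -0.82 and its adjusted p was 0.0129. Over all alternatives the averaged difference lay between -0.82 and -0.63 and its adjusted p between 0.0129 and 0.33.

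After OL 2 of 4 members, *Acta1* and *Acta2*, had KO mice wholly below WT mice. Of all genes 8.89% did, and 16.5% were without overlap in either direction. None of the members passed the test (0 of 4, against 0.0652% of all genes). After RL 0 of 4 members were without overlap (8.18% of genes) and 0 of 4 passed, as did none of the 15329 genes (0%), although 756 had an unadjusted p under 0.05. Training did not move *Acta2* past the threshold. Its log2 changes from untrained mice were -0.024 and -0.21 in WT mice after OL and RL, and -0.17 and 0.22 in KO mice, each with a SE of 0.263.

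Set against the cytoplasmic actins of the same library, *Acta2* was lower in KO mice. *Acta2* reads amounted to 3.18% ± 1.12 of the CPM of *Actb* plus *Actg1* in WT_Basal, 2.34% ± 0.373 in WT_OL and 2.17% ± 0.97 in WT_RL. The KO values were 1.98% ± 0.358, 1.06% ± 0.0747 and 1.55% ± 0.338 (SD, n = 3). After OL all KO mice were below all WT mice (0.983% to 1.13% against 1.91% to 2.56%). The genotypes overlapped without training (1.58% to 2.28% in KO, 2.23% to 4.42% in WT mice) and after RL (1.34% to 1.94% and 1.27% to 3.20%). The log2 ratio differed by -0.73 between genotypes (-0.64, -1.13 and -0.41 in Basal, OL and RL), with p = 0.0045 and an adjusted p of 0.0135 by the exact permutation test within training states. The call held in all 21 alternatives, with adjusted p-values from 0.003 to 0.024. The ratio was also lower in trained than in untrained mice by 0.56 on the log2 scale (difference -0.56, -0.50 in WT and -0.62 in KO mice, exact permutation p = 0.0136, adjusted p = 0.0204). *Acta2* itself passed no test of training, while *Actb* and *Actg1*, the denominators, were higher after it, and without the first WT_Basal mouse it was -0.43 with an adjusted p of 0.0755.

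*Acta2* varied between mice together with the other genes of contractile vascular cells. Over the 18 libraries the correlation of *Acta2* with the mean of 12 vascular smooth muscle markers was 0.97, and 0.95 with group means removed. The markers of endothelial cells gave 0.79, those of meningeal fibroblasts 0.57, those of pericytes 0.33 and those of the choroid plexus 0.29. Libraries share their tissue dissection and depth, so these are descriptions. The 12 markers summed to 123 to 197 CPM in WT_Basal, 134 to 152 CPM in WT_OL and 90.9 to 171 CPM in WT_RL, and to 92.1 to 113, 93.5 to 95.8 and 104 to 128 CPM in the KO groups. None of the 12 was at 0 in any library.

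No smooth muscle marker passed the test between genotypes, and most were lower in KO mice. Without training 12 of 12 were below 0 (median log2 difference -0.39, against 0.0064 for all genes) and 7 had all KO mice below all WT mice, as did 7.67% of all genes. After OL 11 of 12 were below 0 (median -0.61) and 10 had all KO mice below all WT mice (8.89% of all genes). After RL 11 of 12 were below 0 (median -0.19) and 0 had all KO mice below all WT mice (4.19%). The untrained and RL medians leaned on single WT mice. The untrained median was -0.19 without the first WT_Basal mouse, and the RL median was -0.013, with 7 of 12 below 0, without the third WT_RL mouse. The OL median stayed between -0.68 and -0.57 with any 1 mouse left out, with 11 of 12 below 0.

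*Myh11*, the myosin heavy chain of smooth muscle, was 42.4, 27.8 and 23.3 CPM in WT_Basal and 17.6, 13.8 and 18.3 CPM in KO_Basal. *Tagln*, which encodes the actin-binding protein transgelin, was 38.3, 23.2 and 20.7 CPM in WT_Basal and 16.9, 13.5 and 16.8 CPM in KO_Basal. Both separated the untrained genotypes as *Acta2* did. The log2 difference was -0.84 for *Myh11* and -0.72 for *Tagln* without training, and -0.72 and -1.05 after OL. Other cell types also moved with genotype in part. The 8 endothelial markers had a median of -0.12 without training and -0.41 after OL, with 8 of 8 below 0 after OL. The 7 pericyte markers had medians of -0.0048 and -0.39, the 6 markers of meningeal fibroblasts 0.15 and -0.83, and the 6 oligodendrocyte markers -0.43 and -0.55, and none was called. KO mice lay wholly below WT mice without training for 1 endothelial, 0 pericyte, 0 fibroblast and 4 oligodendrocyte markers (7.67% of all genes). After OL these counts were 7, 4, 3 and 3 (8.89%). Of the oligodendrocyte markers, 6 of 6 were below 0 in each of the 3 training states. The medians of 6 astrocyte, 6 microglia and 9 neuron markers were 0.11, 0.13 and -0.082 without training. After OL they were -0.24, -0.17 and 0.21, and none of these markers was called. KO mice lay wholly below WT mice for 0, 0 and 1 of them without training (7.67% of all genes). After OL these counts were 4, 2 and 0 (8.89%). Choroid plexus markers had a median of -2.61 without training and 0.48 after OL, so that they and *Acta2* had opposite signs after OL. The part of the amount of vascular tissue in the difference of *Acta2* was not tested.

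**Figure D4:**
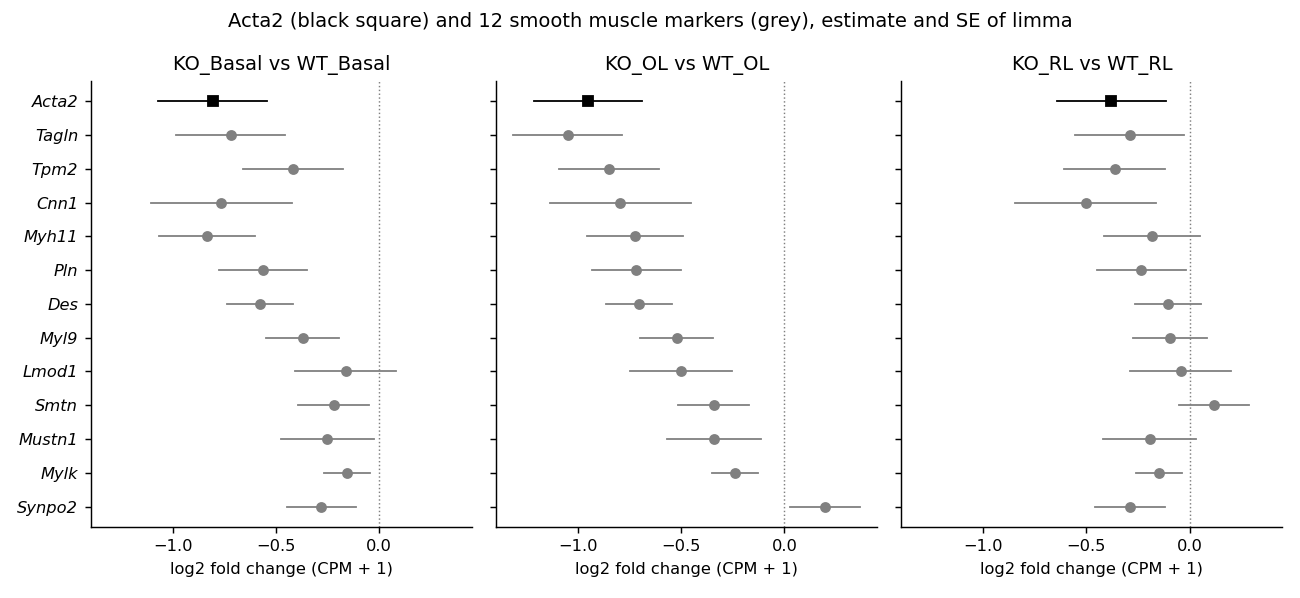
Log2 fold change between KO and WT mice (horizontal axis, on the log2(CPM + 1) scale, estimate and SE of limma) of *Acta2*, as a black square, and of 12 vascular smooth muscle markers, as grey points, in 1 panel per training state. *Acta2* is at -0.81, -0.95 and -0.38, and 12, 11 and 11 of the 12 markers lie below 0.

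*Acta1*, the skeletal muscle actin, was the least abundant member. It was 5.23, 5.79 and 5.70 CPM in WT_Basal, 6.82, 10.7 and 6.34 CPM in WT_OL and 5.54, 5.94 and 3.85 CPM in WT_RL. In KO mice it was 5.75, 5.67 and 6.64 CPM in KO_Basal, 6.07, 5.93 and 5.24 CPM in KO_OL and 5.49, 4.4 and 6.04 CPM in KO_RL. The WT_OL mice were above all WT_Basal mice, all WT_RL mice and all KO_OL mice, and the second WT_OL mouse stood well above the rest.

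In WT mice *Acta1* differed by 0.42 after OL (SE 0.164, unadjusted p = 0.0221, adjusted p = 0.122), and between WT_RL and WT_OL by -0.54 (SE 0.164, unadjusted p = 0.00471, adjusted p = 0.169), and neither passed the test by limma. Between WT_RL and WT_OL 1 of 4 members was without overlap (11.1% of genes) and 0 of 4 were called (0.261% of genes). Between KO_RL and KO_OL 0 of 4 members were without overlap (13.2% of genes) and 0 of 4 were called (0.0196%). Both WT differences of *Acta1* moved with single WT_OL mice. Without the second WT_OL mouse they were 0.21 (adjusted p = 0.462) and -0.33 (adjusted p = 0.652), and without the third 0.54 (adjusted p = 0.0458) and -0.66 (adjusted p = 0.0243). In KO mice the differences from KO_Basal were -0.056 after OL and -0.16 after RL. The difference between genotypes in the change after OL was -0.47 (SE 0.232, unadjusted p = 0.0591, adjusted p = 0.402), so a response to OL in WT mice alone was not shown. Without the second WT_OL mouse it was -0.26.

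The second WT_OL library also had the highest GC trend of all, 0.33. The GC content of the *Acta1* transcript was 57.0%, the highest of the 4, and with group means removed the correlation of *Acta1* with the GC trend was 0.80 over 18 libraries. After correction for GC content the difference after OL in WT mice was 0.27. Markers of striated muscle were few and low. Of 12 such genes 6 were listed, 4 of them had a mean below 1 CPM, and *Ckm*, the muscle creatine kinase, and *Myh1*, a fast myosin heavy chain, were not listed. The correlation of *Acta1* with the mean of the 6 was -0.20. As a share of *Actb* plus *Actg1*, *Acta1* was 0.436% ± 0.0187 in WT_Basal and 0.538% ± 0.0556 in KO_Basal, and 0.484% ± 0.165 and 0.314% ± 0.0348 in WT_OL and KO_OL, and 0.305% ± 0.0462 and 0.315% ± 0.0326 in WT_RL and KO_RL. The log2 ratio was lower in trained mice (difference -0.49, -0.21 in WT and -0.78 in KO mice, exact permutation p = 0.00808, adjusted p = 0.0162), again with higher denominators. In WT mice the mean of the ratio was -7.84 in WT_Basal, -7.74 in WT_OL and -8.37 in WT_RL, so that WT_OL was not below the untrained mice. Between genotypes the ratio differed by -0.074 (exact permutation p = 0.656), a mean over differences of 0.30 in untrained mice, -0.58 after OL and 0.053 after RL.

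**Figure D5:**
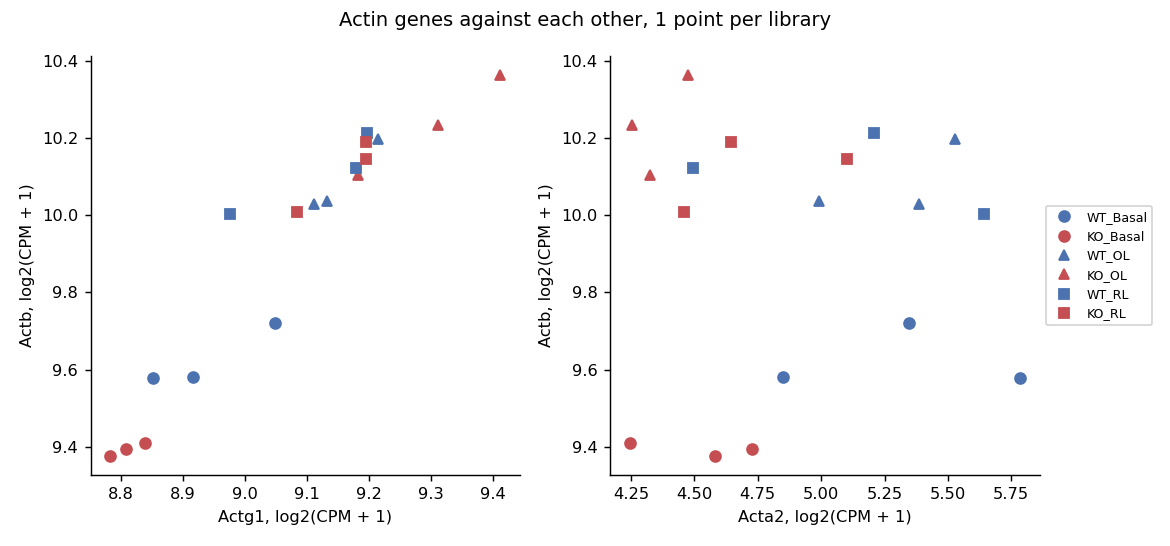
*Actb* (vertical axes) against *Actg1* and against *Acta2* (horizontal axes), all as log2(CPM + 1), in the 18 libraries, with 1 point per mouse, genotype by colour and training state by shape. *Actb* and *Actg1* lie along a line (r = 0.95), while *Actb* and *Acta2* show no common trend (r = -0.0093).

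The genes with the most similar pattern were shared in part by *Actb* and *Actg1*, and those of the muscle actins were on no other list. Among 13978 genes with a mean of at least 1 CPM, the 5 with the highest Pearson correlation over the 18 libraries are given as a description. For *Actb* they were *Pcyox1l* (0.97), *Clptm1* (0.96), *Grn* (0.96), *Tceb3* (0.96) and *Srebf2* (0.96). For *Actg1* they were *Actb* (0.95), *Ppp2r1a* (0.95), *Slc25a29* (0.94), *Pcyox1l* (0.93) and *Clptm1* (0.93), so that *Pcyox1l* and *Clptm1* stood on both lists and *Actb* led the list of *Actg1*. For *Acta1* they were *Pamr1* (0.90), *Shisa4* (0.88), *Gipc1* (0.88), *Scara3* (0.88) and *1110008P14Rik* (0.87). For *Acta2* they were *Myh11* (0.92), *Cnn1* (0.92), *Fbln5* (0.92), *Des* (0.92) and *Tagln* (0.90), 4 of which are on the smooth muscle list and the fifth of which, *Fbln5*, encodes an elastic fiber protein. With group means removed these 5 correlations were still between 0.83 and 0.90. Between the cytoplasmic and the muscle actins the correlations were -0.0093 for *Actb* and *Acta2*, 0.025 for *Actb* and *Acta1*, -0.16 for *Actg1* and *Acta2*, and 0.10 for *Actg1* and *Acta1*. With group means removed they were 0.076, 0.23, -0.20 and 0.31. The pair of muscle actins, *Acta1* and *Acta2*, gave 0.073, and -0.15 with group means removed.

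The genes of several regulators of actin transcription rose after training, with more calls in KO than in WT mice. Over all genes, 3.88% rose and 5.62% fell in WT mice after OL, 8.28% and 7.42% in WT mice after RL, 11.2% and 12.3% in KO mice after OL, and 11.6% (1776 genes) and 1836 genes in KO mice after RL, and these shares are the background of the counts that follow. Of SRF and 5 of its cofactors, 4 rose in KO mice after OL and 4 after RL, 1 rose in WT mice after OL and 2 after RL, and none fell. *Srf* rose by 0.32 and 0.31 on the log2 scale in KO mice after OL and RL (adjusted p = 0.00609 and 0.00793 by limma). *Mkl1* rose by 0.53 and 0.80 in KO mice (adjusted p = 0.00291 and 0.000151) and by 0.50 in WT mice after RL (adjusted p = 0.00665). *Mkl2* rose by 0.55 and 0.60 in KO mice (adjusted p = 0.0379 and 0.0246). Neither *Srf* nor *Mkl2* was called in WT mice. Still, all WT_OL mice were above all WT_Basal mice in *Srf* (28.3% of all genes were without overlap there). All WT_RL mice were above all WT_Basal mice in *Mkl2* (34.3%). *Srf* after RL and *Mkl2* after OL overlapped with WT_Basal. No gene was called in either interaction, so a rise in KO mice alone was not shown. *Elk4*, named after its values were seen, was the 1 cofactor that rose in all 4 comparisons.

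Of 11 listed SRF targets of the cytoskeleton, 0 rose in WT mice after OL and 1 after RL (3.88% and 8.28% of all genes), and 3 rose in KO mice after OL and 4 after RL (11.2% and 11.6%), and none fell. The non-muscle myosin heavy chain *Myh9*, named after its values were seen, was among those called in each of the latter 3 comparisons. The 12 activity-induced genes with SRF sites, immediate early genes such as *Fos* and *Egr1*, had 11 members that rose in WT mice after OL, 4 after RL, 5 in KO mice after OL and 4 after RL, against the same shares of all genes. Between genotypes no gene of these 3 lists was called. The activity-induced genes started higher in KO mice, as 11 of 12 were above 0 in KO_Basal against WT_Basal (median log2 difference 0.43). Of these genes 6 had all KO_Basal mice above all WT_Basal mice, where 14.7% of all genes were without overlap in either direction. The list of SRF and its cofactors had a median log2 change of 0.17 and 0.31 in WT mice after OL and RL, and 0.43 and 0.46 in KO mice, against medians within 0.01 of 0 over all genes.

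Genes whose products handle actin monomers were called in both directions. Falls were at least as many as rises in all 4 comparisons with untrained mice, in the folding list and in the monomer list below. Of 16 genes that fold actin (prefoldin, the CCT chaperonin and its cofactors), 0 rose and 1 fell in WT mice after OL, and 1 rose and 1 fell after RL. In KO mice 2 rose and 3 fell after OL, and 0 rose and 3 fell after RL, while 11.2% of all genes rose and 12.3% fell in KO mice after OL and 1776 rose and 1836 fell of 15329 after RL. The prefoldin subunit gene *Vbp1* fell in all 4 comparisons, by 0.52 and 0.72 in WT mice and by 0.74 and 0.79 in KO mice on the log2 scale (adjusted p = 0.00317, 0.000248, 8.24e-05 and 5.42e-05). The second largest changes were 0.16 for *Cct4* in WT mice after OL (not called), 0.24 for *Cct7* in WT mice after RL (called), -0.34 for *Pfdn1* in KO mice after OL (not called) and -0.52 for *Pfdn1* in KO mice after RL (called). The folding genes thus gave no common direction to set beside the rise of *Actb*.

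Of 12 genes for monomer binding and depolymerization, 0 rose and 2 fell in WT mice after OL, 1 rose and 3 fell after RL, 2 rose and 2 fell in KO mice after OL, and 0 rose and 4 fell after RL, where 5.62%, 7.42% and 12.3% of all genes fell in the first 3 comparisons and 1836 of 15329 in the last. *Cfl2*, a cofilin that severs filaments, fell in all 4 comparisons, by 0.54, 0.62, 0.62 and 0.57 on the log2 scale. *Gsn*, the severing protein gelsolin, rose by 0.64 in KO mice after OL (adjusted p = 0.0391), and its differences of 0.45 in WT mice after OL and 0.55 in KO mice after RL were not called. *Pfn2*, the neuronal profilin that binds actin monomers, fell in all 4 comparisons as well, by 0.43 and 0.46 in WT mice and by 0.48 and 0.498 in KO mice after OL and RL. The 17 listed genes of nucleation and capping showed at most 1 rise and 3 falls in a comparison, and none of the 4 tropomyosins was called. Among 15 filament-binding genes of dendritic spines, 7 rose in KO mice after OL and 9 after RL (11.2% and 11.6% of all genes), and none fell. In WT mice 2 rose after OL and 1 after RL (3.88% and 8.28% of all genes), and none fell. In genotype comparisons no gene of these lists passed the test.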

How the data were processed

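Hippocampal poly-A RNA of 18 mice was sequenced, 1 library per mouse, and groups follow the labels. The authors aligned paired reads to mm10 with STAR 2.5.1, counted them on genes, scaled the counts by TMM (edgeR 3.12.1, R 3.3.0) and deposited 1 table of log2 values. Their methods describe CPM floored at 1, but 2 to the power of a deposited log2 value, minus 1, was a whole multiple of 1 step per library (tolerance 0.1 read) in 100% of values. The scale is therefore log2(CPM + 1), from which reads and CPM were recovered. Whether counting used strand is not given in the sources used here.

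Groups were compared on these log2 values by limma 3.58.1 under R 4.3.3 (1 mean per group over all 18 libraries, eBayes with trend, 12 residual degrees of freedom), in 9 comparisons of groups, 1 genotype contrast averaged over training states and 2 interactions. All tests were two-sided, Benjamini-Hochberg adjustment ran over all 15329 genes of a comparison, and called means an adjusted p under 0.05. The 6 ratio tests were exact permutation tests within training state or genotype, adjusted over the 6. The limma p-values set a difference against the spread between mice within groups, and the permutation p-values set it against other arrangements of these mice.

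The 4 genes, the gene lists and the tests were chosen with earlier results of these data known, and the lists came from general knowledge. The named genes were the 4 members, the other conventional actins, *Ccny*, *Myh11*, *Tagln*, *Srf*, *Mkl1*, *Mkl2*, the 2 largest changes of the folding and monomer lists, and the 5 genes most correlated with each member. Pairs of libraries of a group differed by 8.77 to 104 in chi-square per gene, so no 2 libraries agreed within counting noise.

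Lengths, GC content and positions came from GENCODE M21 on GRCm38 (14769 symbols matched directly, 455 by a later symbol) and promoters from RefSeq. The fit was tested on simulated data. Other steps used pandas 2.3.3, numpy 2.4.6 and matplotlib 3.10.9 under Python 3.11.15. Alternatives were another pseudocount, the floored scale, a filter on low values, other scalings, limma-voom on recovered reads, a GC correction, a fit of only the groups compared, a replicate block and leaving out each library.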

Additional observations from a re-analysis of the deposited data

How the results depend on the processing

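The 6 calls of actin genes over the 9 group comparisons were 6 to 8 with 1 library left out and 5 to 6 under the other alternatives. The fit of only the groups compared lost *Actb* after OL in WT mice (adjusted p = 0.107), with fewer degrees of freedom, and leaving out the third WT_OL mouse added 2 calls of *Acta1*. The genotype contrast averaged over training states gave 0 calls, and 1 without the first WT_RL mouse (leave-one-out range 0 to 1), and the 2 interactions gave 0 under all alternatives run. limma-voom on the recovered reads gave 6, 0 and 0 calls. Same-numbered mice of different groups did not deviate together more than others (median correlation -0.023, from -0.64 to 0.55, against 0.025, from -0.55 to 0.55). With spreads this wide, a median cannot show whether some equal numbers mark a shared batch. A fit with the replicate number as a block gave 6, 0 and 0 calls, as without it. No scaling moved the median of all genes by over 0.1 on the log2 scale.

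Of the 6 ratio tests, the *Acta2* ratio with training was -0.67 to -0.43 with 1 library left out and missed the threshold without the first WT_Basal mouse (-0.43). The *Acta1* ratio between genotypes was -0.14 to 0.013 and changed sign without the second WT_OL mouse (0.013). The ratio of *Actb* to *Actg1* between genotypes was -0.058 to -0.041 with 1 library left out, missed the threshold without the third WT_OL mouse (-0.041), and was -0.049 with an adjusted p of 0.158 for medians. The GC-corrected ratios, chosen after seeing the data, kept the calls of all 5 ratio tests that had passed.

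Of the single-gene results under the alternatives, 829 kept direction and side of the threshold, 27 changed direction, 3 gained and 1 lost a call, and none of the 27 was a call. *Actb* differed by -0.0016 between KO_RL and WT_RL after GC correction and by -0.041 between WT_RL and WT_OL when scaled to total reads. With 1 library left out, *Actb* ranged from -0.052 to 0.055 (KO_RL against WT_RL) and -0.025 to 0.079 (WT_RL against WT_OL). *Actg1* ranged from -0.029 to 0.081 and -0.076 to 0.035 in the same comparisons and, averaged over states, from -0.0034 to 0.040. *Acta1* ranged from -0.10 to 0.16 (KO_RL against WT_RL), -0.22 to 0.037 (WT_RL against WT_Basal), -0.092 to 0.0062 (KO_OL against KO_Basal), -0.19 to 0.0046 (KO_RL against KO_OL) and -0.20 to 0.070 (interaction after RL). *Acta2* ranged from -0.26 to 0.20, -0.45 to 0.12 and -0.48 to 0.098 (WT_OL against WT_Basal, WT_RL against WT_OL and WT_RL against WT_Basal) and from -0.37 to 0.094 (interaction after OL). The causes were not tested. The lowest count of a member in a library was 127 reads, for *Acta1*.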

Other observations

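Of the 2 other conventional actins, *Actc1* was not listed and *Actg2*, the actin of visceral smooth muscle, was near the floor of detection. *Actg2* had 131 reads over all 18 libraries. The 9 WT libraries held 112 of them, at 3 to 27 reads each, and the 9 KO libraries held 19, at 0 to 6 reads each, where a count of 0 allows up to 3 reads. In WT_Basal *Actg2* was 0.533, 0.0999 and 0.286 CPM, in WT_OL 0.267, 0.267 and 0.831 CPM, and in WT_RL 0.11, 0.283 and 0.757 CPM. Its log2 value correlated with that of *Acta2* at 0.83 over the 18 libraries and at 0.71 with group means removed. The genotype difference averaged over training states was -0.36 on the log2(CPM + 1) scale (unadjusted p = 0.0027, adjusted p = 0.355 by limma), which did not pass the test. The scale compresses differences of a gene this low.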
